A study of Mus musculus with 4 samples.

Results

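The genes described here are 10 genes used as markers of macrophages, and their levels were read in cultured rib chondrocytes from embryos that carried or lacked a deletion of Senp6, the gene of a protease that removes SUMO chains from proteins. The genes were Ptprc, Cd68, Csf1r, Tyrobp, Fcer1g, Lyz2, Laptm5, C1qa, C1qb and Aif1, out of 18298 genes with a read in any sample. They were chosen by name with their levels in this comparison already known, so the difference between genotypes is given for them as a description and carries no test. Primary rib chondrocytes were taken from C57BL/6 mouse embryos at E18.5 and sequenced at passage 1, with 2 control samples (Senp6f/f, here WT) and 2 mutant samples (Dermo1-Cre;Senp6f/f, here Mut). Both genotypes carried the floxed Senp6 alleles, and the mutants alone carried Dermo1-Cre, which is driven from the Twist2 locus in mesenchymal progenitors of cartilage and bone. The rib cages were cleared of soft and bony tissue, digested with pronase and collagenase D, and the released cells were plated, with no step that sorted cells by type. The labels do not say whether the 2 samples of a genotype came from separate litters.

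Macrophages are phagocytes of the myeloid lineage that live in most tissues, where they take up dead cells and debris and secrete complement and cytokines. Their survival depends on CSF1 or IL-34 acting on the receptor tyrosine kinase CSF1R, and stromal cells are a common source of CSF1. The transcription factor PU.1, encoded by Spi1, drives many of the genes that are used as macrophage markers, and several receptors on these cells signal through small adaptor proteins with an ITAM, a tyrosine motif that recruits the kinase SYK. Osteoclasts, which resorb bone and mineralized cartilage, come from the same lineage and share many of these genes.

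The promoters of the 10 genes were looked up in a RefSeq table (GRCm38.p6), which held 7 of them (Ptprc, Cd68, Fcer1g, Lyz2, Laptm5, C1qb and Aif1) and 8 windows, each running from 250 bases before the start site to 50 after it. The 250 bases before the start are shown for the genes with the most reads, Cd68 at chr11:69666171-69666420 and Lyz2 at chr10:117282273-117282522, and for C1qb at chr4:136886201-136886450, the gene with the lowest Mut-to-WT ratio. All 3 lie on the minus strand and are written 5′ to 3′ in the direction of transcription, and capitals mark GAGGAA, a core of the PU.1 motif.
Cd68: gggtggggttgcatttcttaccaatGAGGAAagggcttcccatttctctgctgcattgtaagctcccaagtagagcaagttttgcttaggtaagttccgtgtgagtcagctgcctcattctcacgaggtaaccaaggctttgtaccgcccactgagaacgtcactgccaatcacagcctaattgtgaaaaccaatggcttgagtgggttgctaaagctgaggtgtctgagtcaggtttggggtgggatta
C1qb: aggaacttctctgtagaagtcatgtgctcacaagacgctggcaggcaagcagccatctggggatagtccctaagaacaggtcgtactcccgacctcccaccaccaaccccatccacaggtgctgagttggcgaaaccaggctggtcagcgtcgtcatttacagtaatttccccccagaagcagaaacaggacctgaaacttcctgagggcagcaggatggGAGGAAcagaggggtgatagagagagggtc
Lyz2: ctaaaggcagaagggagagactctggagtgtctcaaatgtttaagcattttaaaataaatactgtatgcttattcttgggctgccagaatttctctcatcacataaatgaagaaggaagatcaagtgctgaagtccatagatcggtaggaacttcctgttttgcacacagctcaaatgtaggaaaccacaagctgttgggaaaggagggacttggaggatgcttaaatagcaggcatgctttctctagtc

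GAGGAA was searched on both strands of the whole window and was found for 5 of the 7 genes (Ptprc, Cd68, Laptm5, C1qb and Aif1), against 31.3% of 27025 genes in the table. The C1qb match lay at positions -30 to -25 from the start and the Cd68 matches at -225 to -220 and, on the other strand, at 30 to 35. Lyz2 and Fcer1g had no match in the window. Of the other motifs searched, the AP-1 sequence TGANTCA was found for 1 of the 7 genes (Cd68, at 2 places) against 8.97% of genes, the RUNX core TGTGGT for 2 of 7 (Fcer1g and Lyz2) against 18.9%, and the TATA box TATAAA for 2 of 7 (Ptprc and Laptm5) against 15.7%. These matches describe the letters in the windows, and binding was not measured.

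Reads assigned to genes numbered 21.0 M and 26.1 M (M, mega) in the WT samples and 31.0 M and 28.2 M in the Mut samples. The targeted gene, Senp6, had 1125 and 2326 reads in WT and 1839 and 1126 in Mut, so its level overlapped between the genotypes (edgeR log2 fold change -0.56, SE 0.28, adjusted p = 0.410), and the files do not say which exons the reads came from. Mut replicate 2 had 11354 reads of Xist, the transcript of the inactive X chromosome, where the other samples had 2 to 5, and 0 to 3 reads of each of the Y-linked genes Ddx3y, Uty, Kdm5d and Eif2s3y, which had 279 to 1601 reads in the other samples. The Mut group thus held libraries of both sexes and the WT group did not. Across 14123 genes with at least 10 reads in at least 2 samples, edgeR's quasi-likelihood test called 0 genes higher and 0 lower in Mut at an adjusted p under 0.05. At an unadjusted p under 0.05 it gave 1312 higher (9.29%) and 887 lower (6.28%), and DESeq2 called 434 higher (3.07%) and 263 lower (1.86%) after adjustment.

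All 10 marker genes were read in at least 3 of the 4 samples, at low levels. In RPKM, the read count divided by transcript length and by the size of the library, their group means ran from 0.0278 to 9.49. In WT the order was Lyz2 at 9.49 ± 2.31 (SD, n = 2), Cd68 at 4.76 ± 0.787, C1qb at 1.89 ± 0.178, C1qa at 1.81 ± 0.611 and Fcer1g at 1.63 ± 0.162. Csf1r at 1.14 ± 0.112, Tyrobp at 1.12 ± 0.0190 and Laptm5 at 1.11 ± 0.0831 followed, then Aif1 at 0.103 ± 0.0844 and Ptprc at 0.0385 ± 0.00592. Lyz2 and Cd68 stood apart from the others in each sample. The WT ranges of C1qa overlapped those of C1qb and of Fcer1g, and those of Csf1r, Tyrobp and Laptm5 overlapped one another, so these neighbours were not ordered beyond their spread. Aif1 and Ptprc differed by less than the SD of Aif1. In Mut the first place was not settled, with Cd68 at 3.77 ± 0.674 and Lyz2 at 3.64 ± 1.57.

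**Figure D1:**
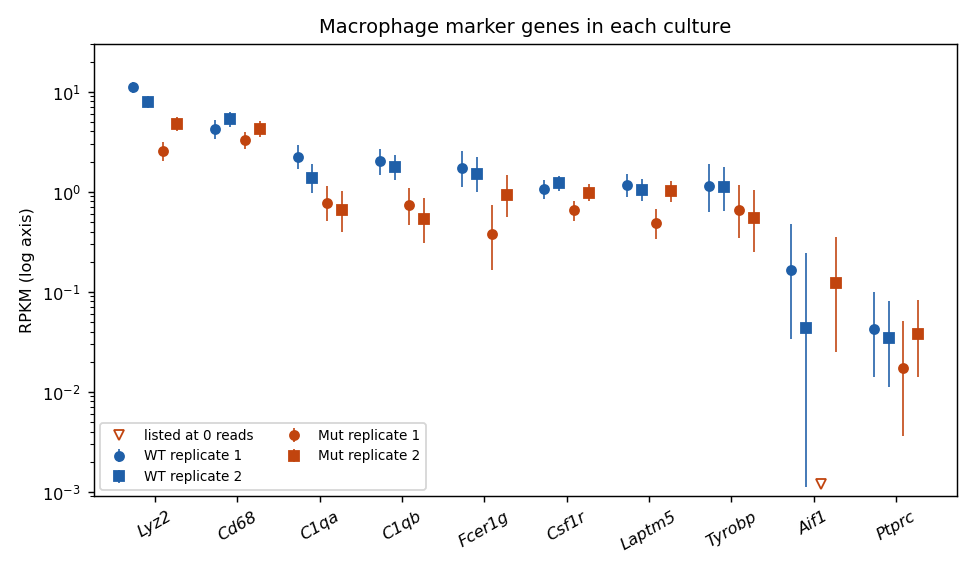
Level of each of the 10 genes in each sample, as RPKM on a log axis, with a point per sample and exact Poisson 95% intervals for the read count, which cover counting error only. Lyz2 and Cd68 have the highest points in every sample, and Aif1 and Ptprc the lowest, with Aif1 at 0 reads in Mut replicate 1, drawn as an open triangle at the foot of the axis.

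Both Mut samples were lower than both WT samples for most of these genes, and the size of the difference varied among them. The filter on low counts was passed by 8 genes and not by Aif1 and Ptprc. On levels scaled by TMM (CPM, the count scaled to a common library size) both Mut samples lay below both WT samples for 8 of the 8 and above for 0. Over the 14123 genes tested, 22.8% had both lower and 25.3% both higher. In the deposited RPKM, without this scaling, both were lower for 7 of the 8, since the Cd68 levels overlapped, against 19.2% of all genes with both lower and 28.3% with both higher. The fold changes of the 8 ran from -1.61 to -0.38 on the log2 scale with a median of -1.14, where all genes tested had a median of 0.01, and 4 of the 8 were at -1 or lower, where 2.6% of all genes were. A fold change below 0 was found for 48.6% of all genes tested. Without Mut replicate 2, the library with Xist reads, the median of the 8 was -1.23. These counts follow from how the genes were chosen and are given only as a description. In bulk RNA, fewer cells of a type and less RNA of these genes per cell cannot be told apart.

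Among the secreted proteins, Lyz2, the lysozyme of macrophages and other myeloid cells, had 11.1 and 7.85 RPKM in WT and 2.53 and 4.76 in Mut. Both Mut samples were lower, but the samples within each genotype also differed beyond counting error, with 95% intervals of 9.78 to 12.6 and 6.84 to 8.97 RPKM in WT and of 2.02 to 3.14 and 4.01 to 5.61 in Mut. The fold change was -1.43 (SE 0.35, log2), and it was -1.93 without Mut replicate 2 and -1.06 without Mut replicate 1. Lyz1, a near-identical copy of Lyz2, had 13 and 19 reads in WT and 2 and 16 in Mut, which was 2.35% to 10.1% of the reads of the pair, so the split of reads between the copies is uncertain.

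C1qa and C1qb encode chains of C1q, the protein that starts the classical complement pathway and for which macrophages are the main source. C1qa had 2.24 and 1.38 RPKM in WT and 0.775 and 0.654 in Mut, from 20 to 51 reads per sample. C1qb had 2.02 and 1.77 RPKM in WT and 0.729 and 0.533 in Mut, from 16 to 49 reads. The groups did not overlap for either gene. The log2 fold change was -1.37 (SE 0.42) for C1qa and -1.61 (SE 0.38) for C1qb, and with each sample left out in turn it stayed between -1.74 and -0.96 for C1qa and between -1.88 and -1.39 for C1qb. The third chain, C1qc, named here after its values were seen, had 1.61 and 1.80 RPKM in WT and 0.607 and 1.30 in Mut, with a log2 fold change of -0.89 (SE 0.44, edgeR adjusted p = 0.405). The 3 chains had the same direction, with Mut replicate 2 the lower Mut sample for C1qa and C1qb and the higher for C1qc.

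Fcer1g and Tyrobp encode ITAM adaptors, the common γ chain of Fc receptors and DAP12, the partner of TREM2. Fcer1g had 1.74 and 1.51 RPKM in WT and 0.378 and 0.933 in Mut, the lower Mut value from 8 reads. Its log2 fold change of -1.36 (SE 0.53) moved to -2.11 without Mut replicate 2 and to -0.86 without Mut replicate 1, so its size rested on which Mut sample was used. Tyrobp had 1.14 and 1.11 RPKM in WT and 0.661 and 0.544 in Mut, with a log2 fold change of -0.93 (SE 0.47). The Tyrobp samples of a genotype were close to each other and the groups did not overlap, but the values came from 9 to 17 reads, and the 95% intervals of the Mut samples ran up to 1.15 and 1.03 RPKM, close to the WT levels.

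Of the lysosomal genes, Cd68, a glycoprotein of late endosomes and lysosomes, was read over 100% of its length in each sample. It had 4.20 and 5.31 RPKM in WT and 3.30 and 4.25 in Mut, so the higher Mut sample sat above the lower WT sample. With a log2 fold change of -0.38 (SE 0.26) it was the member with the smallest difference. Laptm5, a lysosomal membrane protein of blood cells, had 1.17 and 1.05 RPKM in WT and 0.484 and 1.02 in Mut. Here the groups did not overlap, but Mut replicate 2 was within the counting error of both WT samples, and the log2 fold change of -0.62 (SE 0.41) was -0.19 without Mut replicate 1 and -1.22 without Mut replicate 2.

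The signalling receptor genes were the kinase Csf1r and the phosphatase Ptprc, the latter near the limit of detection. Csf1r, the CSF1 and IL-34 receptor, had 1.06 and 1.21 RPKM in WT and 0.649 and 0.978 in Mut, with a log2 fold change of -0.53 (SE 0.29). The groups did not overlap, but the 95% interval of Mut replicate 2, from 0.801 to 1.18 RPKM, held the level of WT replicate 1. In the GENCODE M21 annotation, exons of Csf1r overlap Hmgxb3 on the opposite strand, and whether the libraries kept strand is not given in the sources used here, so reads of these genes may not be fully separated. Ptprc encodes CD45, a phosphatase on all white blood cells, and had 5 and 5 reads in WT and 3 and 6 in Mut, which covered 7.09% to 12.0% of its length. Its pooled Mut-to-WT ratio of 0.697 had a counting interval from 0.251 to 1.91, and a difference was not detectable at this depth.

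Aif1 encodes IBA1, an actin-bundling protein used to stain macrophages and microglia. It had 3 and 1 reads in WT and 0 and 3 in Mut, and the 0 in Mut replicate 1 allows a level of up to 0.111 RPKM by the limit of 3 reads, or 0.136 by the exact Poisson interval. The ratio of pooled reads, corrected for library size, was 0.581 with a counting interval from 0.0851 to 3.44, so nothing can be said of its direction. For the genes with more reads the same ratio was 0.330 (0.222 to 0.482) for C1qb, 0.376 (0.319 to 0.442) for Lyz2, 0.396 (0.271 to 0.571) for C1qa, 0.651 (0.497 to 0.851) for Laptm5, 0.686 (0.560 to 0.840) for Csf1r and 0.758 (0.628 to 0.915) for Cd68. These intervals cover counting error only, and for several genes the samples of a genotype lay further apart than it allows. The exact Poisson intervals of such samples did not overlap for Lyz2 in both genotypes and for Laptm5 in Mut. They overlapped, but with each sample's level outside the interval of the other, for Cd68 in both genotypes. The same held for C1qa in WT and for Csf1r and Fcer1g in Mut. The ratio intervals of these genes are thus too narrow for the spread between samples.

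**Figure D2:**
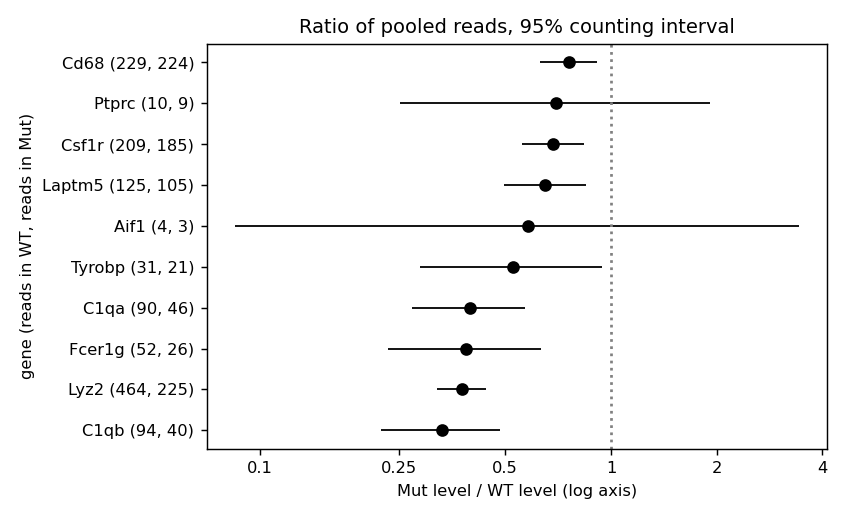
Ratio of pooled reads, Mut over WT, for each of the 10 genes on a log axis, with 95% intervals from the counts, which cover counting error only. C1qb, Lyz2, Fcer1g and C1qa lie lowest at 0.330 to 0.396, Cd68 is at 0.758, and the intervals of Aif1 and Ptprc span 1.

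Summed over the 10 genes, the markers took 30.7 and 26.0 CPM in WT and 12.0 and 17.6 in Mut, with means of 28.4 ± 3.33 and 14.8 ± 3.94 (SD, n = 2). The log2 ratio of the means was -0.94. Lyz2 was the largest contributor to the sum in 3 of the 4 samples. Without Lyz2 the sums were 18.6 and 17.8 in WT and 9.34 and 12.7 in Mut, a log2 ratio of -0.72. Leaving out Lyz2 was not planned beforehand. Without Mut replicate 2 the log2 ratio over the 10 genes was -1.24, and without Mut replicate 1 it was -0.69. The sample with the lowest sum, Mut replicate 1, was lowest for 5 of the 8 genes tested (Lyz2, Cd68, Fcer1g, Csf1r and Laptm5), and Mut replicate 2 was lowest for the other 3 (C1qa, C1qb and Tyrobp).

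The make-up of the marker reads also differed between samples. Lyz2 took 39.6% and 31.7% of them in WT and 22.3% and 27.8% in Mut. Cd68 took 14.3% and 20.5% in WT and 27.6% and 23.7% in Mut, and Csf1r took 13.8% and 17.98% against 20.9% and 20.9%. For each of these genes the Wilson 95% interval of WT replicate 1 overlapped that of neither Mut sample. The interval of WT replicate 2 overlapped those of both Mut samples for Cd68 and Csf1r, and that of Mut replicate 2 alone for Lyz2.

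**Figure D3:**
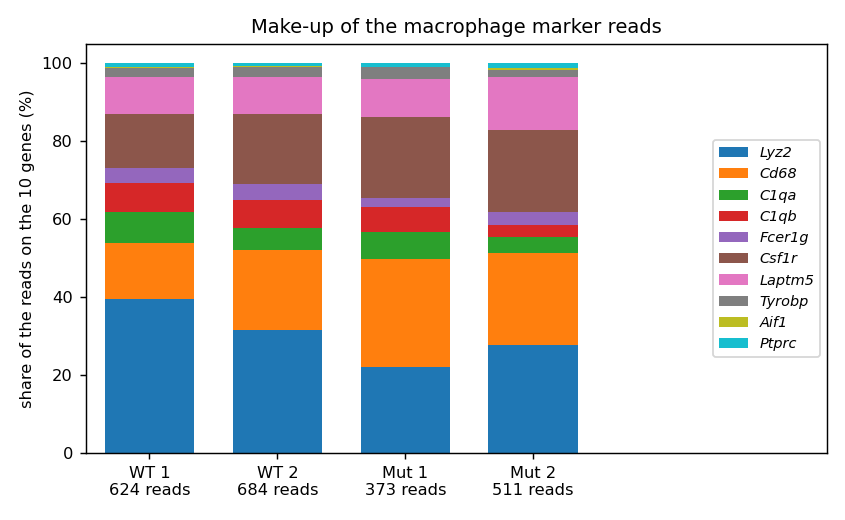
Share of the marker reads taken by each gene in each sample, as percent of the reads of the 10 genes, stacked to 100%. The Lyz2 share is 39.6% and 31.7% in WT and 22.3% and 27.8% in Mut, and the Cd68 share is larger in both Mut samples than in both WT samples.

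Other genes of the lineage were read from lists, beginning with the ligands and transcription factors. Over all genes tested, 9.29% were higher and 6.28% lower at edgeR's unadjusted p under 0.05. After adjustment DESeq2 called 3.07% of all genes higher and 1.86% lower. The counts of each list are to be read against these shares. Csf1, the ligand of Csf1r, was far above all 10 markers, at 99.8 and 117 RPKM in WT and 110 and 139 in Mut, and the groups overlapped (log2 fold change 0.15, SE 0.15, edgeR adjusted p = 0.690). Of 13 tested genes among 16 CSF ligands, receptors and myeloid transcription factors, 0 passed edgeR's adjusted p, 1 was higher and 3 were lower at that unadjusted p, and the median log2 fold change was -0.09. DESeq2 called 1 of them lower (1.86% of all genes). That gene, Cebpa, a factor of myeloid cells and of fat cells, had 39.8 and 12.9 RPKM in WT and 4.61 and 4.01 in Mut (log2 fold change -2.66, SE 0.51, edgeR adjusted p = 0.0959, DESeq2 adjusted p = 0.0155). Taken as a ratio of levels, WT replicate 1 was thus about as far from WT replicate 2 as the latter was from the Mut samples. Runx1, Maf and Klf4 had log2 fold changes of -0.53, -0.67 and -0.09, with edgeR adjusted p-values of 0.336, 0.231 and 0.784. Spi1, the PU.1 gene, listed under its older symbol Sfpi1 and named here after its values were seen, had 14 and 11 reads in WT and 5 and 5 in Mut.

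A list of 30 other macrophage genes had 20 that passed the filter, with a median log2 fold change of -0.60, and 13 of the 20 had both Mut samples below both WT samples while 3 had both above, against 22.8% and 25.3% of all genes. On the test across all genes 0 passed edgeR's adjusted p. At an unadjusted p under 0.05, 0 were higher and 5 lower (9.29% and 6.28% of all genes). DESeq2 called 1 lower (1.86% of all genes). Cd14, the co-receptor for lipopolysaccharide, went the other way from most, with 2.23 and 2.97 RPKM in WT and 3.25 and 4.56 in Mut (log2 fold change 0.54, edgeR adjusted p = 0.416). Sirpa, the receptor of the CD47 signal, Mertk, a receptor for dying cells, and Gpnmb had log2 fold changes of -0.39, -0.20 and 0.53, with edgeR adjusted p-values of 0.208, 0.646 and 0.404.

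The genes with the lowest fold changes of that list, and a pair of genes with the opposite order, were picked here after their values were seen and stand for no theme. Siglec1, the sialic acid receptor of resident macrophages, had 32 and 21 reads in WT and 7 and 5 in Mut, and Pf4, a chemokine of platelets and of some macrophages, had 27 and 15 against 6 and 5. Their log2 fold changes were -2.53 (SE 0.57, edgeR adjusted p = 0.117) and -2.32 (SE 0.62, edgeR adjusted p = 0.158), and neither passed DESeq2's adjusted p. Siglec1 and Pf4 passed the filter on low counts only through the WT samples, where they were higher. Mrc1, the mannose receptor of many resident macrophages, had 131 and 163 reads in WT and 213 and 200 in Mut (log2 fold change 0.12, edgeR adjusted p = 0.835). Cx3cr1, the fractalkine receptor, also had the opposite order with 1 and 5 reads in WT and 9 and 30 in Mut, and did not pass the filter.

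The pan-leukocyte list held genes on both sides of 0. Of its 22 genes 14 passed the filter, with a median log2 fold change of -0.26, and 5 of the 14 had both Mut samples lower while 4 had both higher, against 22.8% and 25.3% of all genes. At edgeR's adjusted p 0 passed, with 1 higher and 3 lower at an unadjusted p under 0.05 (9.29% and 6.28% of all genes). DESeq2 called only Lcp1, an actin-bundling protein of white blood cells, lower (1.86% of all genes). Lcp1 had 1.52 and 0.983 RPKM in WT and 0.354 and 0.512 in Mut (log2 fold change -1.58, SE 0.36, edgeR adjusted p = 0.118, DESeq2 adjusted p = 0.0168). Ptpn6, the phosphatase SHP-1, had 0.514 and 0.620 RPKM in WT and 0.900 and 1.10 in Mut (log2 fold change 0.77, edgeR adjusted p = 0.338). Arhgdib, an inhibitor of small GTPases, stood at 63.2 to 142 RPKM with overlapping groups (log2 fold change 0.48, edgeR adjusted p = 0.450), far above Ptprc in every sample. The median of the list turned to 0.01 without Mut replicate 2.

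Partners of the adaptors Fcer1g and Tyrobp were mostly read and lay on both sides of 0. Of 18 ITAM-coupled receptors and kinases, Trem3, Fcer1a and Hcst were not listed in any sample and 10 passed the filter, with a median log2 fold change of -0.21. Against edgeR's adjusted p 0 passed, with 1 higher and 2 lower at an unadjusted p under 0.05 (9.29% and 6.28% of all genes). DESeq2 called 0, against 3.07% of all genes higher and 1.86% lower. Fcgr3, an Fc receptor that needs the γ chain, had 0.774 and 0.622 RPKM in WT and 0.215 and 0.392 in Mut (log2 fold change -1.24, SE 0.49, edgeR adjusted p = 0.291). Syk, the kinase that binds the ITAM, had 1.01 and 2.34 RPKM in WT and 2.91 and 2.46 in Mut (log2 fold change 0.65, SE 0.36, edgeR adjusted p = 0.466).

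Complement genes beyond the C1q chains were 13 tested genes, and their median log2 fold change was -0.61. At edgeR's adjusted p 0 passed, with 2 higher and 6 lower at an unadjusted p under 0.05 (9.29% and 6.28% of all genes). DESeq2 called 1 higher and 3 lower (3.07% and 1.86% of all genes). The lower genes were C4b, Cfb and Cfd, the last pair named after their values were seen. C4b, the classical pathway component cut by C1s, had 15.9 and 6.97 RPKM in WT and 2.52 and 3.61 in Mut (log2 fold change -1.96, SE 0.40, edgeR adjusted p = 0.104, DESeq2 adjusted p = 7.0e-06). C1ra and C1s, the proteases that form C1 with C1q, had log2 fold changes of -0.61 and -0.53 (edgeR adjusted p-values of 0.359 and 0.557), and their levels of 11.1 to 30.4 RPKM were above those of C1qa and C1qb in every sample.

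The 4 tested genes of the phagocyte oxidase had a median log2 fold change of -0.02, with 0 at an unadjusted p under 0.05 in edgeR and 0 called by DESeq2. Cybb, the catalytic subunit in phagocytes, stood at 0.1001 and 0.0886 RPKM in WT and 0.0339 and 0.0521 in Mut, and its partner Cyba, which many cell types express, at 67.8 and 76.4 in WT and 76.3 and 87.1 in Mut. The 5 tested MHC class II genes had a median of 0.21, with 0 at an unadjusted p under 0.05, and H2-Ab1 had 0.558 and 0.128 RPKM in WT and 0.379 and 0.682 in Mut.

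**Figure D4:**
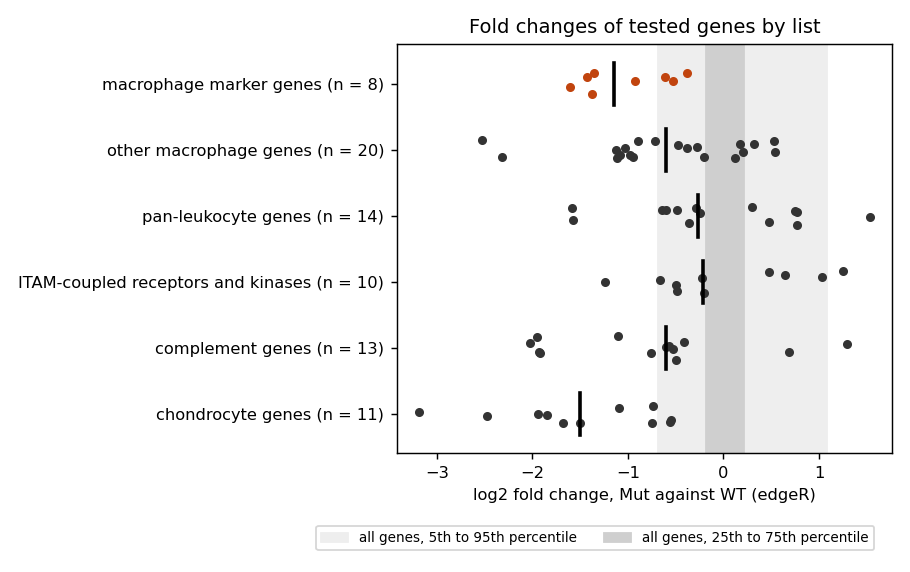
Log2 fold changes (edgeR, Mut against WT) of the tested genes of 6 lists, with a point per gene, a black bar at the median and grey bands for the 5th to 95th and 25th to 75th percentile of all 14123 genes tested. The 8 marker genes lie between -1.61 and -0.38, the other lists of immune genes reach both sides of 0, and the 11 chondrocyte genes lie below 0.

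Genes of other blood lineages mostly had few reads, with exceptions in each list. Lymphocyte genes had 74 and 88 reads in WT and 111 and 133 in Mut over the list of 12, with Cd79b, Ms4a1 and Ncr1 among the genes not listed in any sample. Most of these reads came from the T cell kinase gene Lck, at 0.548 and 0.705 RPKM in WT and 0.817 and 1.06 in Mut, and from Cd8a, at 0.464 to 0.599 RPKM, levels near those of Tyrobp, C1qa and C1qb in Mut. Erythroid genes had 11 to 36 reads over 13 genes, with Hba-a2, Hbb-bt, Hbb-b1 and Slc4a1 not listed, and neutrophil and mast cell genes 15 to 102 over 14 genes, with Ly6g, Retnlg, Mcpt4 and Tpsb2 not listed. In the neutrophil and mast cell list, Kit held most of the reads of both Mut samples, with 5 and 5 in WT and 53 and 63 in Mut. In the erythroid list, Epor had 3 and 4 reads in WT and 20 and 14 in Mut. Epor thus held most of the erythroid reads in Mut replicate 1 (20 of 29) but not in Mut replicate 2 (14 of 36). Kit, of the neutrophil and mast cell list, had 0.0457 and 0.0367 RPKM in WT and 0.329 and 0.429 in Mut (log2 fold change 3.14, SE 0.46, edgeR adjusted p = 0.0789, DESeq2 adjusted p = 0.00412). It passed the filter on low counts only through the Mut samples, where it was higher. Of the 11 osteoclast genes, Dcstamp and Calcr were not listed and 7 were tested, with a median of -0.25, 0 past edgeR's adjusted p, and 2 higher and 1 lower at an unadjusted p under 0.05. DESeq2 called 1 higher and 1 lower (3.07% and 1.86% of all genes). The lower was Ctsk, the protease cathepsin K, at 77.3 and 61.0 RPKM in WT and 38.3 and 34.8 in Mut (log2 fold change -0.96, SE 0.17, edgeR adjusted p = 0.0885, DESeq2 adjusted p = 1.8e-04). The higher was Tnfrsf11a, named here after its values were seen, at 0.265 and 0.472 RPKM in WT and 1.27 and 1.76 in Mut (log2 fold change 1.98, SE 0.34, edgeR adjusted p = 0.0873, DESeq2 adjusted p = 2.5e-04).

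Markers of the non-blood cells that the cultures could hold also differed between the genotypes. The 11 chondrocyte genes summed to 5095 and 4983 CPM in WT and 2737 and 3219 in Mut, and all 11 had both Mut samples below both WT samples (22.8% of all genes), with a median log2 fold change of -1.50. DESeq2 called 9 of them lower (1.86% of all genes) and edgeR 0 at an adjusted p under 0.05, with 10 lower at an unadjusted p under 0.05 (6.28% of all genes). The 12 skeletal muscle genes summed to 205 and 62.3 CPM in WT and 335 and 351 in Mut, with a median of 1.39. DESeq2 called 3 of these higher (3.07% of all genes) and edgeR 0 after adjustment, with 5 higher at an unadjusted p under 0.05 (9.29% of all genes). The medians of the osteoblast, fibroblast and endothelial lists were -0.98, -0.62 and -0.11. The fibroblast genes summed to 61784 and 40592 CPM in WT and 39757 and 27298 in Mut, and the osteoclast genes to 243 and 202 in WT and 178 and 157 in Mut. The muscle, chondrocyte, fibroblast, osteoclast and macrophage marker sums each separated the genotypes. So did the other macrophage sums, lower in Mut. The ITAM sums were barely apart, at 43.9 and 46.3 CPM in WT and 43.3 and 42.6 in Mut. The neutrophil and mast cell sums were higher in Mut, at 1.33 and 0.571 CPM in WT and 1.87 and 3.51 in Mut. Kit alone took 0.246 and 0.190 CPM in WT and 1.71 and 2.17 in Mut. The erythroid sums were also higher in Mut, at 0.542 and 0.533 CPM in WT and 0.934 and 1.24 in Mut. Epor alone took 0.148 and 0.152 CPM in WT and 0.644 and 0.482 in Mut. Of the osteoclast sum, Ctsk took 119 and 89.9 CPM in WT and 56.6 and 50.2 in Mut. Of the 7 tested osteoclast genes, 2 had both Mut samples lower and 2 both higher, against 22.8% and 25.3% of all genes. The part of the other cell types in the difference of the markers was not tested.

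**Figure D5:**
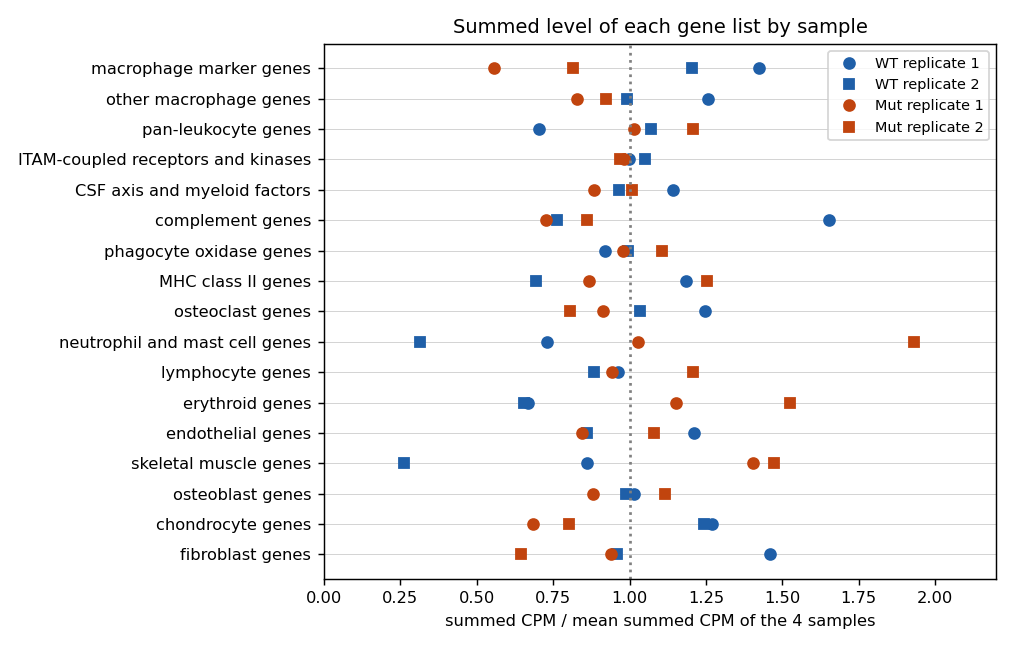
Summed CPM (with TMM library sizes) of each gene list in each sample, divided by the mean of the 4 samples for that list, on a linear axis, with a point per sample and a dotted line at 1. The macrophage marker and chondrocyte points of both Mut samples lie below those of both WT samples, and the skeletal muscle points lie above.

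The genes whose pattern over the 4 samples was most like the mean of the 8 tested markers were Cybb, Lrrc16b, Il18, Dio3os and Folr2, by Euclidean distance of centred log2 CPM (0.0649, 0.0672, 0.0912, 0.113 and 0.140). Il18, a cytokine of the IL-1 family, had the highest level of these, with 5.38 and 4.64 RPKM in WT and 2.35 and 3.07 in Mut, and Folr2, a folate receptor of resident macrophages, had 0.868 and 0.767 in WT and 0.353 and 0.516 in Mut. All 5 had the order of the marker sums, with WT replicate 1 highest and Mut replicate 1 lowest. These genes were chosen for this likeness, so their values are a description.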

How the data were processed

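RNA from 4 cultures of rib chondrocytes was sequenced, 2 of each genotype. The deposited tables hold a read count per gene, an RPKM and a percentage of the gene length covered, all computed by the authors. The labels name mm9 and SAMtools, and the aligner, counter and gene annotation are not given in the sources used here. Gene symbols and lengths are those of the tables, and a gene without a row in a sample was given a count of 0. Checked against the counts, the deposited RPKM equalled the count scaled by gene length and by the sum of all counts in the sample.

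Counts were scaled by TMM and tested with edgeR 4.0.16 (quasi-likelihood fit, robust, R 4.3.3) on the genes that reached 10 reads in 2 or more samples, and p-values were adjusted by Benjamini and Hochberg's method with a threshold of 0.05. DESeq2 1.42.0, and limma 3.58.1 on log2(RPKM + 1), were alternatives, and all fits were tested on simulated data. Standard errors are those of edgeR's log2 fold changes. Intervals are exact Poisson intervals for reads and Wilson intervals for shares, at 95%, and cover counting error only. Those of the pooled Mut-to-WT ratios are exact binomial 95% intervals for the Mut share of a gene's pooled reads, scaled by library size. They too cover counting error only. Where samples may share a litter or culture, p-values measure only the spread between these samples, which may be technical.

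The 10 marker genes and the gene lists were chosen with earlier results of these data known. Genes named from a list are its 5 of highest mean RPKM, any past edgeR's adjusted p, and those without reads. The 5 genes of nearest profile, Senp6, Lyz1, Xist and Y-linked genes were also named, and any gene named outside this rule is said to be. Some genes that the rule names are not reported here. Promoter sequences came from RefSeq (GRCm38.p6), a different build from that of the tables, and were matched by symbol. Replicate numbers were checked for pairing: the correlation of replicate differences between the genotypes over 14123 genes was -0.04, so the samples were not treated as paired.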

Additional observations from a re-analysis of the deposited data

How the results depend on the processing

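The 8 tested marker genes kept a negative median log2 fold change under every alternative run (-1.14 as reported). It was -0.85 with no filter on low counts, which adds Aif1 and Ptprc, -0.55 on limma's log2(RPKM + 1), where the pseudocount shrinks low genes, and -1.26 to -0.92 with each sample left out in turn. The log2 ratio of the marker sum (-0.94 as reported) was -1.47 with the median of the genes in place of the sum, -0.56 without Lyz2 and the C1q genes (an alternative chosen after seeing the data), and -1.24 to -0.69 with each sample left out. The median of the other macrophage genes stayed negative in every alternative, at -0.73 to -0.40 with each sample left out, -0.11 on log2(RPKM + 1) and -0.38 on log2(RPKM + 0.1), against -0.60 as reported. The pan-leukocyte median (-0.26 as reported) was -0.34 with no filter, -0.33 with at least 10 counts in every sample, -0.060 and -0.20 on log2(RPKM + 1) and log2(RPKM + 0.1), and -0.32 to 0.011 with each sample left out, where it turned positive without Mut replicate 2; the cause was not tested.

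The counts of genes called over the whole table, 0 higher and 0 lower with edgeR, depended on the setting: 434 and 263 with DESeq2, 225 and 61 with no filter, 6 and 2 without TMM factors, and 84 and 33 with the replicate number as a replicate block, a pairing that the samples do not show. With each sample left out they ran from 96 to 1331 higher and from 47 to 1492 lower, both highest without WT replicate 2. Such a fit leaves a lone sample in a group and assumes that it varies like the others. The causes were not tested. Depth limits the low genes: Aif1 and Ptprc had at most 6 reads in a sample, and Tyrobp and Fcer1g at most 27.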
